A study of Mus musculus with 6 samples.

Results

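The genes described here are 9 members of the machinery of necroptosis and apoptosis, chosen by gene symbol from the deposited table of read counts, which lists 54532 genes. They are *Ripk1*, *Ripk3*, *Mlkl* and *Zbp1* of the necroptosis pathway, *Casp8*, *Fadd* and *Cflar* of the death receptor complex, and *Bax* and *Bcl2*, which act at mitochondria. The rule uses their symbols and no threshold on a measured value, but the symbols were chosen with earlier results of these data known. Each of the 9 passed the filter on low counts, so none was left untested.

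RNA was sequenced from perfused whole lungs of untreated mice at 2 months of age, in 3 WT and 3 ISM1-/- libraries. The WT mice were purchased C57BL/6J mice, and the ISM1-/- mice, a knockout of the secreted protein isthmin-1, were bred in-house on the same background, so genotype and origin of the animals cannot be told apart. The study calls the libraries of a genotype biological replicates, but the sources do not say whether each came from 1 animal, so p-values measure the spread between these libraries. Libraries were enriched for poly-A RNA and strand-specific, and the authors mapped read pairs to the mouse genome GRCm38 with STAR.

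In apoptosis, caspases dismantle a cell in an orderly way, either after a death receptor has assembled FADD and caspase-8 or after BAX and BAK have permeabilised the outer mitochondrial membrane. Necroptosis is a lytic death in which RIPK1 or ZBP1 engages the kinase RIPK3, RIPK3 phosphorylates the pseudokinase MLKL, and MLKL disrupts the plasma membrane. Caspase-8 together with cFLIP, the product of *Cflar*, holds RIPK1 and RIPK3 in check, so the same complex stands between survival and both kinds of death. In the lung these pathways are known from viral infection and epithelial injury, and they are controlled to a large part at the protein level, by cleavage, phosphorylation and ubiquitination, which RNA counts do not measure.

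Total counts per library lay between 37606133 and 42345042, and *Ripk3*, with the fewest reads of the 9 genes, still had 1881 counts over the 6 libraries. *Ism1* itself was read at 82.2, 77.5 and 76.9 CPM (read counts relative to library size, scaled between libraries by edgeR's TMM factors) in the WT libraries and at 65.5, 66.1 and 75.7 CPM in the libraries labelled ISM1-/-. These ranges did not overlap, the log2 fold change was −0.19 (SE 0.0709) and edgeR's quasi-likelihood test gave an adjusted p of 0.217 after Benjamini-Hochberg correction. Without ISM1-/- 3 it passed, at −0.26 (edgeR adjusted p = 0.0356). The counts therefore do not verify the genotype labels, and every direction below is that of the libraries labelled ISM1-/- against WT. Markers of lung cells were present in all libraries, with 25417 to 27324 summed CPM over 7 genes of alveolar type 2 cells. In the libraries labelled ISM1-/-, 4 of 7 B cell, 4 of 7 neutrophil, 3 of 8 T and NK cell, 2 of 5 plasma cell and 1 of 6 alveolar type 1 cell markers were higher at an adjusted p under 0.1. There, 7 of 7 adipocyte, 5 of 6 ciliated and club cell, 3 of 6 fibroblast, 1 of 6 smooth muscle and 1 of 9 cardiomyocyte markers were lower. None of the 8 alveolar macrophage, 7 alveolar type 2 and 7 endothelial markers passed in edgeR or DESeq2, with 2, 1 and 2 of them at an unadjusted p under 0.05. Cardiomyocyte markers summed to 1647 CPM in WT 1 and to between 295 and 646 CPM in the other libraries.

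None of the 9 cell-death genes differed between the genotypes at an adjusted p under 0.1 in edgeR's quasi-likelihood test, and 0 were called by DESeq2. Over all 18689 genes tested the same threshold called 882, or 4.72%, with 258 of them (1.38%) above WT and 624 (3.34%) below. With the additional minimum of a 2-fold change, again 0 of the 9 were called, beside 106 genes (0.567%) in all. At an unadjusted p under 0.05 there was 1 of the 9, *Bax*, beside 15.8% of all genes. The adjusted p-values of the members ran from 0.303 to 0.963.

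The fold changes were small and most lay on one side of 0. Of the 9 log2 fold changes, 8 were above 0, compared with 51.2% of all genes tested, and their median was 0.14, compared with 0.00430 over all genes. The 8 include *Mlkl* and *Zbp1*, whose signs reversed when single libraries were left out. The genes were read in the same 6 libraries, so these are not 9 independent signs, and a joint shift was not tested. The median size regardless of sign was 0.14 for the members and 0.11 for all genes. The fit gave a 95% interval for each difference, and the intervals of 9 of the 9 members lay within a 2-fold change in either direction, as did 86.3% of those of all genes. The farthest end of a member's interval was at 0.95, for *Zbp1*. A change beyond 2-fold in whole lung was thus outside the interval of every member. In whole tissue, fewer cells of a type and less RNA per cell cannot be told apart.

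**Figure D1:**
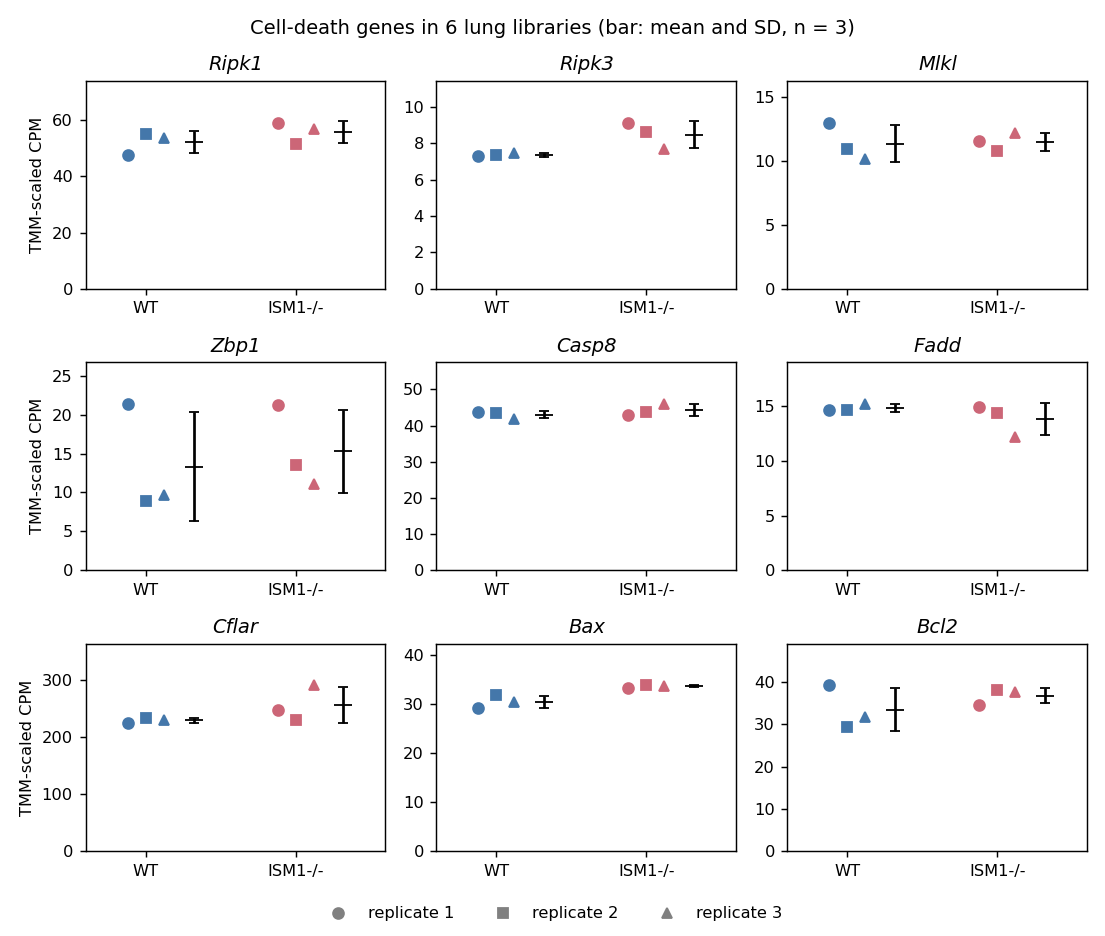
Level of each of the 9 genes in each library, in TMM-scaled CPM on axes that start at 0. Blue symbols are WT and red symbols are libraries labelled ISM1-/-, with the shape giving the replicate number, and the black bars are the mean and SD of 3 libraries. The genotypes did not overlap for *Ripk3* and *Bax* and overlapped for the other genes, and WT 1 and ISM1-/- 1 stood above the other libraries for *Zbp1*.

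**Figure D2:**
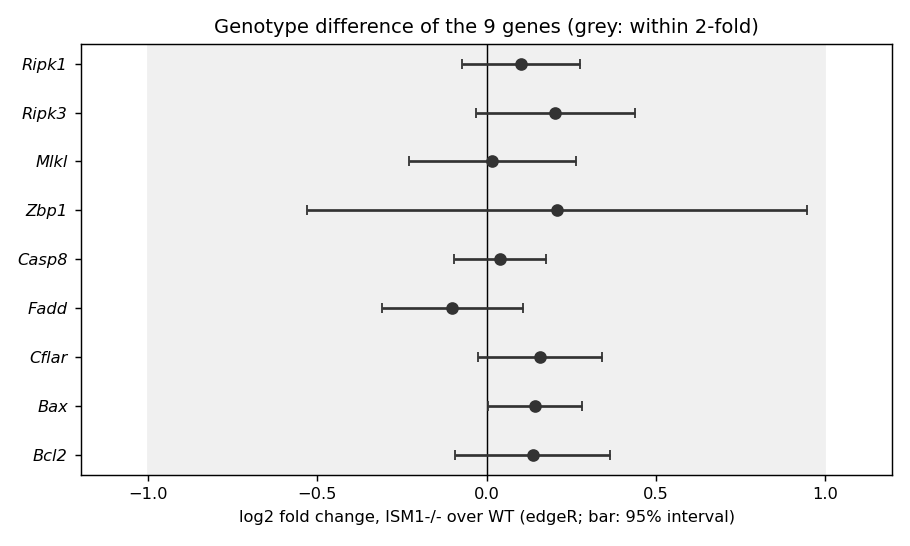
Log2 fold change of each gene, libraries labelled ISM1-/- over WT, with the 95% interval of the edgeR fit, and in grey the range within a 2-fold change. The intervals all lay inside the grey range, and that of *Zbp1*, from −0.53 to 0.95, was the widest.

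*Ripk3* and *Bax* were the members whose 3 values in the libraries labelled ISM1-/- all lay above the 3 WT values. Complete separation in that direction was seen for 9.33% of all genes and in the other direction for 12.3%, and no member separated in the other direction. The sequences in front of their start sites are shown because both hold the same 6-base palindrome, CACGTG, the core of the E-box bound by basic helix-loop-helix factors. The 150 bases before each start site in RefSeq (GRCm38.p6), read 5′ to 3′ on the minus strand that carries both genes, have the palindrome in capitals.
Ripk3, chr14:55788858-55789007: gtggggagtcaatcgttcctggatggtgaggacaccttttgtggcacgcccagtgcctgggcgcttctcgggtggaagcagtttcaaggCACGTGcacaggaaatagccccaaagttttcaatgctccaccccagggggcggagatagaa
Bax, chr7:45466899-45467048: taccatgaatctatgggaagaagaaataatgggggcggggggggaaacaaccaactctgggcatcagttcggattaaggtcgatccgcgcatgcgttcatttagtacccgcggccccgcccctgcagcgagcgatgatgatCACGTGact
The palindrome began 61 bases before the start site in *Ripk3* and 9 bases before it in *Bax*.

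RefSeq windows of 250 bases before the start site were at hand for 8 of the 9 genes, as 9 windows because *Ripk1* has 2. The gene without a window was *Zbp1*. Among 32851 such windows of the mouse genome, 6.02% held CACGTG, and among the 9 windows it was in those of *Ripk3* and *Bax* alone. Every motif was searched on both strands, so a match can lie on either. The GC box GGGCGG was in 6 windows, of *Ripk1*, *Ripk3*, *Fadd*, *Bax* and *Bcl2*, and in 32.7% of all windows. TATAAA was in the *Cflar* window (12.4% of all) and CCAAT in that of *Casp8* (33.8%). The core of the interferon-stimulated response element was in 0 of the 9 windows and in 2.98% of all. The promoter of *Zbp1*, a gene induced by interferon, was not searched for it. The GC content of the 9 windows ranged from 39.6% in *Casp8* to 74.8% in *Bcl2*, around a median of 52.4% over all windows. The motifs were chosen after the sequences and the values had been seen, and a match in letters is not a measurement of binding.

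The kinase at the head of the pathway, *Ripk1* (chromosome 13, 34002363 to 34037147, plus strand), which signals survival from the TNF receptor or starts cell death, had 47.7, 55.0 and 53.9 CPM in WT 1 to 3 and 59.2, 51.6 and 57.1 CPM in ISM1-/- 1 to 3. WT 1 was the lowest and ISM1-/- 1 the highest library, and the groups overlapped. The means were 52.2 ± 3.91 and 56.0 ± 3.91 CPM (SD, n = 3 each). The log2 fold change was 0.10 with an SE of 0.0780 and an interval from −0.07 to 0.27 (edgeR adjusted p = 0.596). The first 432 bases of *Ripk1* are also the first 432 bases of *Serpinb6a* on the opposite strand, a gene with a mean of 5589 counts against 2144 for *Ripk1*, and whether the reads were counted by strand is not given in the sources used here.

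*Ripk3* (chromosome 14, 55784995 to 55788865, minus strand), the kinase through which every necroptotic signal passes, had the fewest reads of the 9 genes. It was read at 7.27, 7.32 and 7.47 CPM in the WT libraries, which spread by a coefficient of variation of 1.45%. At 274, 304 and 289 counts, counting alone gives a wider spread on average, so 1.45% is too low to stand for such libraries. The libraries labelled ISM1-/- had 9.13, 8.62 and 7.66 CPM and spread by 8.76%. All 3 exceeded every WT library, but ISM1-/- 3 stood above WT 3 by less than the SD of its own group, 0.742 CPM. The means were 7.35 ± 0.106 and 8.47 ± 0.742 CPM, and the log2 fold change of 0.20 (SE 0.106, interval −0.03 to 0.44) did not pass edgeR's test (unadjusted p = 0.0831, adjusted p = 0.395). With 1 library left out at a time it stayed between 0.15, without ISM1-/- 1, and 0.27, without ISM1-/- 3, and the lowest adjusted p was 0.174.

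The 3 ISM1-/- libraries stood in the same order for *Ripk3* as for markers of B cells, but the 3 WT libraries did not. The 7 B cell genes, among them *Ms4a1*, summed to 236.7, 180.8 and 134.7 CPM in ISM1-/- 1 to 3 and to 124.6, 114.6 and 130.1 CPM in WT 1 to 3, with no marker at 0 and 4 of 7 called higher. Neutrophil markers summed to 141, 117 and 80.3 CPM in ISM1-/- 1 to 3 and to 51.7, 52.6 and 67.4 CPM in WT 1 to 3. T and NK cell markers, at 122, 91.9 and 87.2 CPM against 71.0, 54.5 and 72.6 CPM, had the same order among the ISM1-/- libraries. The 8 alveolar macrophage markers had another order, with 501.9, 536.6 and 439.8 CPM in ISM1-/- 1 to 3 beside 574.6, 550.9 and 509.9 CPM in WT. So did the 5 plasma cell markers, of which 2 were called higher. They summed to 277.5, 254.6 and 297.0 CPM in ISM1-/- 1 to 3 and to 194.6, 201.8 and 203.1 CPM in WT. The part of these cells in the *Ripk3* difference was not tested.

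**Figure D3:**
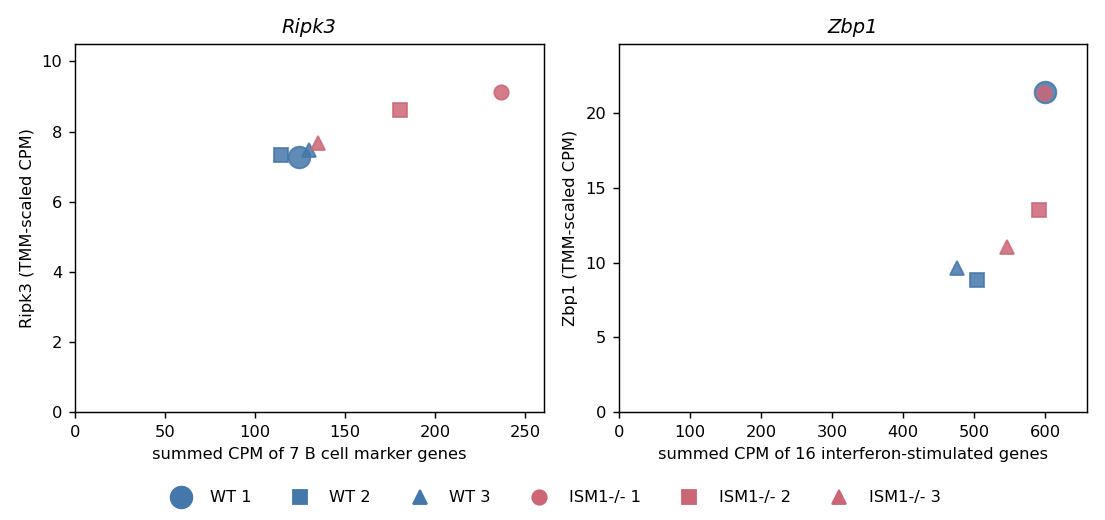
Left, *Ripk3* against the summed level of 7 B cell markers, and right, *Zbp1* against the summed level of 16 interferon-stimulated genes, 1 point per library in TMM-scaled CPM on axes that start at 0. ISM1-/- 1 and 2 lie to the upper right of the other libraries for *Ripk3*. For *Zbp1*, WT 1 and ISM1-/- 1 nearly coincide at 21.4 and 21.3 CPM, above 8.84 to 13.5 CPM in the other libraries.

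Across the 6 libraries, the pattern of *Ripk3* was most like those of *Arhgap4* and of *Blk*, a kinase of the B cell receptor, with Pearson's r of 0.996 and 0.995 on log2 CPM among 15875 genes compared. *Blk* is one of the 7 B cell markers above. It had 9.39, 8.79 and 9.85 CPM in WT and 20.1, 15.8 and 10.7 CPM in the libraries labelled ISM1-/-, where it rose with a log2 fold change of 0.74 (SE 0.190, edgeR adjusted p = 0.0817). *Arhgap4* rose by 0.40 (SE 0.108, edgeR adjusted p = 0.0974). The correlations describe 6 libraries that differ in the levels of cell type markers, and the highest of so many comparisons is large by selection.

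*Mlkl* (chromosome 8, 111311797 to 111338177, minus strand), whose product executes necroptosis at the plasma membrane, had nearly equal means of 11.4 ± 1.47 and 11.5 ± 0.698 CPM. The single values were 13.0, 10.9 and 10.2 CPM in WT and 11.5, 10.8 and 12.2 CPM in the libraries labelled ISM1-/-. WT 1 was the highest and WT 3 the lowest library, so the WT range enclosed the other group. The log2 fold change of 0.02 (SE 0.110, interval −0.23 to 0.26, edgeR adjusted p = 0.963) was the smallest of the 9, and it lay below 0 when WT 2 (−0.0095), WT 3 (−0.0558) or ISM1-/- 3 (−0.02) was left out. The genes most like it were *Emc9* (r = 0.992) and *Olfr56* (r = 0.980).

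*Zbp1* (chromosome 2, 173206612 to 173218923, minus strand) encodes a sensor of Z-form nucleic acid that binds RIPK3 and is induced by interferon. It varied more between libraries of 1 genotype than any other member, with 21.4, 8.84 and 9.62 CPM in WT and 21.3, 13.5 and 11.0 CPM in the libraries labelled ISM1-/-. WT 1 and ISM1-/- 1 were alike and the highest library exceeded the lowest 2.42-fold. The coefficients of variation were 52.9% and 35.0%, where the median over 15876 genes that averaged 1 CPM or more was 5.97% in WT and 7.90% in the other group. The log2 fold change was 0.21 with an SE of 0.331 (interval −0.53 to 0.95, edgeR adjusted p = 0.831). Leaving out WT 1 raised it to 0.73 (edgeR adjusted p = 0.185), and leaving out ISM1-/- 1 turned it to −0.11, so its sign rested on single libraries.

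The 16 interferon-stimulated genes of a list that does not include *Zbp1* summed to 600, 505 and 477 CPM in WT 1 to 3 and to 599, 592 and 546 CPM in ISM1-/- 1 to 3. WT 1 and ISM1-/- 1 were again the highest libraries, though ISM1-/- 2 was close to them. In this list 15 of the 16 log2 fold changes lay above 0 with a median of 0.13, beside 51.2% of all genes tested. Calls were 0 in edgeR (4.72% of all genes) and 1 in DESeq2 (1285 of all 18689 genes). At an unadjusted p under 0.05 in edgeR there were 3, beside 15.8% of all genes. *Mx1*, an antiviral GTPase and the gene of the list with the largest fold change, had 7.93, 5.28 and 4.84 CPM in WT and 8.77, 8.35 and 6.05 CPM in the other group (log2 fold change 0.36, edgeR adjusted p = 0.436). The genes most like *Zbp1* over the 6 libraries were *Naip6* (r = 0.985), which encodes a sensor of the NAIP family, and *Rab32* (r = 0.981).

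In the death receptor complex, *Casp8* (chromosome 1, 58795374 to 58847503, plus strand), the initiator caspase that also cleaves RIPK1 and RIPK3, was among the steadiest of the 9 genes. It had 43.8, 43.4 and 41.9 CPM in WT and 42.8, 43.9 and 46.0 CPM in the libraries labelled ISM1-/-. The groups overlapped, with coefficients of variation of 2.35% and 3.69%. The means were 43.0 ± 1.01 and 44.2 ± 1.63 CPM and the log2 fold change was 0.04 (SE 0.0611, interval −0.10 to 0.18, edgeR adjusted p = 0.827).

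*Fadd* (chromosome 7, 144577318 to 144582463, minus strand), the adaptor that joins death receptors to caspase-8, was the member with a log2 fold change below 0. It had 14.7, 14.6 and 15.2 CPM in WT and 14.9, 14.4 and 12.2 CPM in the libraries labelled ISM1-/-. ISM1-/- 3 was the lowest library, and ISM1-/- 1 lay within the WT range. The log2 fold change was −0.10 (SE 0.0932, interval −0.31 to 0.11, edgeR adjusted p = 0.670), and the means were 14.8 ± 0.331 and 13.8 ± 1.43 CPM. Without ISM1-/- 3 the log2 fold change was −0.02, and without ISM1-/- 1 it was −0.16.

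*Cflar* (chromosome 1, 58711508 to 58758884, plus strand) encodes cFLIP, a caspase-8 homologue without protease activity that restrains both forms of death, and it had the most reads of the 9 genes, between 8469 and 11316 per library. The WT libraries had 224.6, 232.2 and 229.7 CPM. The libraries labelled ISM1-/- had 247.7, 228.7 and 290.04 CPM. ISM1-/- 2 lay inside the WT range and ISM1-/- 3 above every other library. The means were 228.8 ± 3.86 and 255.5 ± 31.4 CPM and the log2 fold change was 0.16 (SE 0.0821, interval −0.02 to 0.34, edgeR adjusted p = 0.393), which became 0.06 without ISM1-/- 3. *Cflar* and *Casp8* are neighbours on the same strand, 36489 bases apart.

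At the mitochondrion, *Bax* (chromosome 7, 45461697 to 45466898, minus strand), a pore-forming effector, had 29.2, 31.7 and 30.4 CPM in WT and 33.3, 33.8 and 33.7 CPM in the libraries labelled ISM1-/-. The 3 ISM1-/- values were close together, with a coefficient of variation of 0.702% against 4.12% in WT, and each lay above the WT range. At 1418, 1283 and 1313 counts, 0.702% is also less than counting alone gives on average. The means were 30.4 ± 1.25 and 33.6 ± 0.236 CPM. The log2 fold change was 0.14 (SE 0.0623, interval 0.00 to 0.28) with an unadjusted p of 0.0457 and an adjusted p of 0.303 in edgeR. It remained between 0.12 and 0.17 when 1 library at a time was left out, with adjusted p-values of 0.246 and above.

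*Bcl2* (chromosome 1, 106538178 to 106714274, minus strand), the guardian that binds BAX and keeps the membrane closed, had 39.2, 29.4 and 31.7 CPM in WT and 34.6, 38.0 and 37.5 CPM in the libraries labelled ISM1-/-. WT 1 was the highest library of all, above the whole other group, and WT 2 and WT 3 lay below it. The means were 33.4 ± 5.13 and 36.7 ± 1.82 CPM. The log2 fold change was 0.14 (SE 0.102, interval −0.09 to 0.36, edgeR adjusted p = 0.581), and it was 0.27 without WT 1 and 0.05 without WT 2. Other annotated genes overlap *Casp8*, *Fadd*, *Bax* and *Bcl2*, but the largest of them, *Gm37760* within *Casp8*, had a mean of 26.2 counts.

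Ratios between 4 pairs of members were taken within each library, which removes the scaling between libraries. The log2 ratio of *Bax* to *Bcl2* counts was −0.42, 0.11 and −0.06 in WT and −0.05, −0.17 and −0.16 in the libraries labelled ISM1-/-, so the WT libraries enclosed the other group and the means differed by −0.0019. The sign of that difference rested on single libraries, with −0.15 without WT 1 and 0.12 without WT 2. The ratio of *Cflar* to *Casp8* was 2.36, 2.42 and 2.46 in WT and 2.53, 2.38 and 2.66 in the other group, a mean difference of 0.11 with overlap. The groups overlapped as well for *Ripk3* to *Casp8* (mean difference 0.16) and for *Mlkl* to *Ripk3* (mean difference −0.18). With 1 library left out, the mean difference ran from 0.05 (without ISM1-/- 3) to 0.18 (without ISM1-/- 2) for *Cflar* to *Casp8*. It ran from 0.08 (without ISM1-/- 1) to 0.26 (without ISM1-/- 3) for *Ripk3* to *Casp8*, and from −0.29 (without ISM1-/- 3) to −0.07 (without WT 1) for *Mlkl* to *Ripk3*. None of the 4 ratios separated the genotypes over the 6 libraries.

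Levels were compared between genes on the deposited FPKM values, which divide the counts by gene length. *Cflar* was the most abundant with a mean of 132 FPKM over the 6 libraries (123 to 156 FPKM), followed by *Bax* with 49.5 FPKM, *Casp8* with 21.9 FPKM and *Ripk1* with 19.0 FPKM. *Mlkl* (8.70 FPKM), *Ripk3* (8.35 FPKM), *Zbp1* (7.04 FPKM) and *Bcl2* (6.99 FPKM) lay close together, and *Fadd* was the lowest with 3.67 FPKM. Of the 8 pairs of neighbours in this order, 5 did not overlap in their 6 values. The neighbours that overlapped were *Mlkl* and *Ripk3*, *Ripk3* and *Zbp1*, and *Zbp1* and *Bcl2*.

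The order depended on the length used. The FPKM values implied a length of 1829 bases for *Cflar*, where the length listed in the same table is 12669 bases, and of 947 against 2292 bases for *Ripk3*, while both were 3903 bases for *Fadd*. Per kilobase of the listed length, *Bax* was first with 20.3 and *Cflar* second with 19.1 CPM per kilobase, and *Ripk3* came last with 3.45 CPM per kilobase. On that scale 3 of the 8 neighbouring pairs did not overlap. In the means, *Casp8* (15.1 CPM per kilobase) remained above *Ripk1* (6.47 CPM per kilobase), and these above *Mlkl*, *Zbp1*, *Bcl2*, *Fadd* and *Ripk3*, on either length. Per kilobase of the listed length, single values of *Zbp1* (up to 6.07) and *Ripk1* (from 5.73) overlapped.

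**Figure D4:**
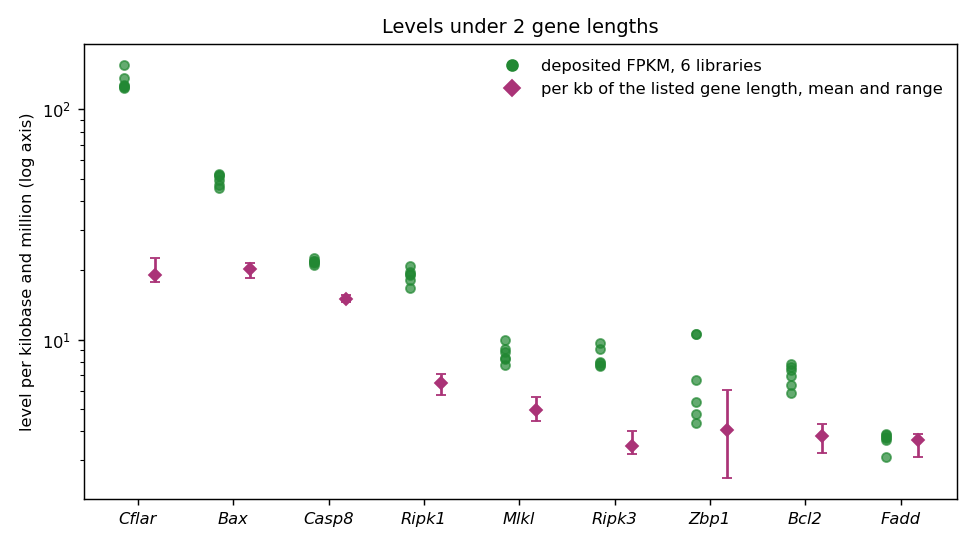
Level of each gene in FPKM or CPM per kilobase on a log axis. Green points are the deposited FPKM of the 6 libraries, and purple diamonds with bars are the mean and range per kilobase of the gene length listed in the table. *Cflar* falls from 132 to 19.1, while *Fadd* is at 3.67 on both.

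Around the 9 genes, 136 of 139 genes in 11 lists of connected pathways could be tested. At an adjusted p under 0.1 in edgeR, 1 was higher and 2 were lower, where 1.38% and 3.34% of all genes tested were. The median log2 fold change of the 136 was 0.03, and 19 had an unadjusted p under 0.05, beside 15.8% of all genes. The same shares over all genes stand beside the counts of single lists below. *Endog*, a mitochondrial nuclease that enters the nucleus in dying cells, had 23.7, 25.5 and 25.9 CPM in WT and 18.6, 18.9 and 16.7 CPM in the libraries labelled ISM1-/-. It fell by 0.47 on the log2 scale (SE 0.0767, edgeR adjusted p = 0.0189), the groups did not overlap, and it passed in 5 of 6 fits that left out 1 library. *Tyro3*, a receptor kinase for the uptake of dying cells, fell by 0.38 (SE 0.0780, edgeR adjusted p = 0.0375), from 25.6, 29.5 and 29.2 CPM to 21.8, 22.5 and 20.3 CPM, and passed in 2 of the 6 fits.

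*Il1b*, the cytokine matured in pyroptosis, rose by 0.60 (SE 0.166) at an adjusted p of 0.0997 in edgeR, just inside the threshold. It had 5.81, 4.79 and 5.74 CPM in WT and 7.48, 10.4 and 6.92 CPM in the libraries labelled ISM1-/-. It passed in 1 of 6 fits with a library left out and lost its call in 12 of 17 alternatives in all, among them the replicate block (edgeR adjusted p = 0.113), scaling by library totals (0.108) and both limma fits (0.145 and 0.130). *Bok*, a relative of *Bax*, lay just outside, with 11.1, 13.0 and 13.3 CPM in WT, 8.91, 9.54 and 10.3 CPM in the other group, a log2 fold change of −0.38 (SE 0.106) and an edgeR adjusted p of 0.1005. *Bok* passed in 8 of 17 alternatives, among them the replicate block (edgeR adjusted p = 0.0742), library totals (0.0881), no filter on low counts (0.0434) and both limma fits (0.0967 and 0.0866). DESeq2 called *Bok* (adjusted p = 0.0526) along with *Il1b*, *Endog* and *Tyro3*, and it also called the interferon-stimulated gene *Ifit2* (log2 fold change 0.27, DESeq2 adjusted p = 0.0900). In the other lists with 0 calls in edgeR, DESeq2 called 0 genes as well. The values of *Il1b* and *Bok* did not overlap between the genotypes. Neutrophil markers, which summed to 51.7 to 67.4 CPM in WT and to 80.3 to 141 CPM in the other group, were also higher in every ISM1-/- library than in WT. Their order among the ISM1-/- libraries was another, with 141 CPM in ISM1-/- 1 and 117 CPM in ISM1-/- 2, where *Il1b* was highest in ISM1-/- 2. The part of neutrophils in the *Il1b* difference was not tested.

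Among the 19 tested genes of the TNF receptor complex, which decides whether RIPK1 signals survival or death, 0 were called by edgeR or stood at an unadjusted p under 0.05, and their median log2 fold change was 0.02. *Tnf* itself was rare, with 1.30, 0.843 and 1.01 CPM in WT and 2.05, 1.90 and 1.0 CPM in the other group (log2 fold change 0.65, SE 0.303, edgeR adjusted p = 0.335), and the groups overlapped. It passed without ISM1-/- 3, at 0.91 (edgeR adjusted p = 0.0794), and was at 0.47 without ISM1-/- 1. No gene was called among 9 other death ligands and receptors (median 0.04, 1 gene at an unadjusted p under 0.05), where *Tnfrsf10b*, the mouse TRAIL receptor, was at 0.18 (edgeR adjusted p = 0.535). The 9 sensors and adaptors upstream of RIPK3 also had 0 calls (median 0.04, 1 gene at an unadjusted p under 0.05). *Irf9*, which carries the interferon signal to the nucleus, had 72.4, 68.3 and 67.2 CPM in WT and 84.8, 75.3 and 78.0 CPM in the other group without overlap (log2 fold change 0.20, SE 0.0653, edgeR adjusted p = 0.167).

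The 14 chaperones, regulators and membrane repair genes of necroptosis had 0 calls and 0 genes at an unadjusted p under 0.05 in edgeR, with a median of 0.01, and *Flot2*, a membrane scaffold, was at −0.12 (edgeR adjusted p = 0.504). Of the *Bcl2* relatives, 0 of 8 guardians and effectors and 0 of 7 BH3-only genes were called by edgeR, with 2 and 0 genes at an unadjusted p under 0.05 and medians of −0.00483 and 0.01. The BH3-only gene with the largest fold change was *Bik*, at −0.22 (edgeR adjusted p = 0.350). *Endog* was the 1 gene called of 15 of the apoptosome, caspases and inhibitors, whose median was −0.00297. *Il1b* was the 1 called of 12 pyroptosis genes, which had a median of 0.13 and 4 genes at an unadjusted p under 0.05.

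Of 11 genes of p53 and its targets 0 were called (median −0.02, 1 gene at an unadjusted p under 0.05), and the stress gene *Sesn2* was at −0.27 (edgeR adjusted p = 0.258). It passed without WT 1, at −0.40 (edgeR adjusted p = 0.0375), and was at −0.19 without WT 2. *Tyro3* was the 1 gene called of 16 for the uptake of dying cells, with a median of −0.00232. In that list *Timd4*, a phosphatidylserine receptor, had a larger fold change of −0.49 but a wider error (SE 0.250, edgeR adjusted p = 0.385).

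**Figure D5:**
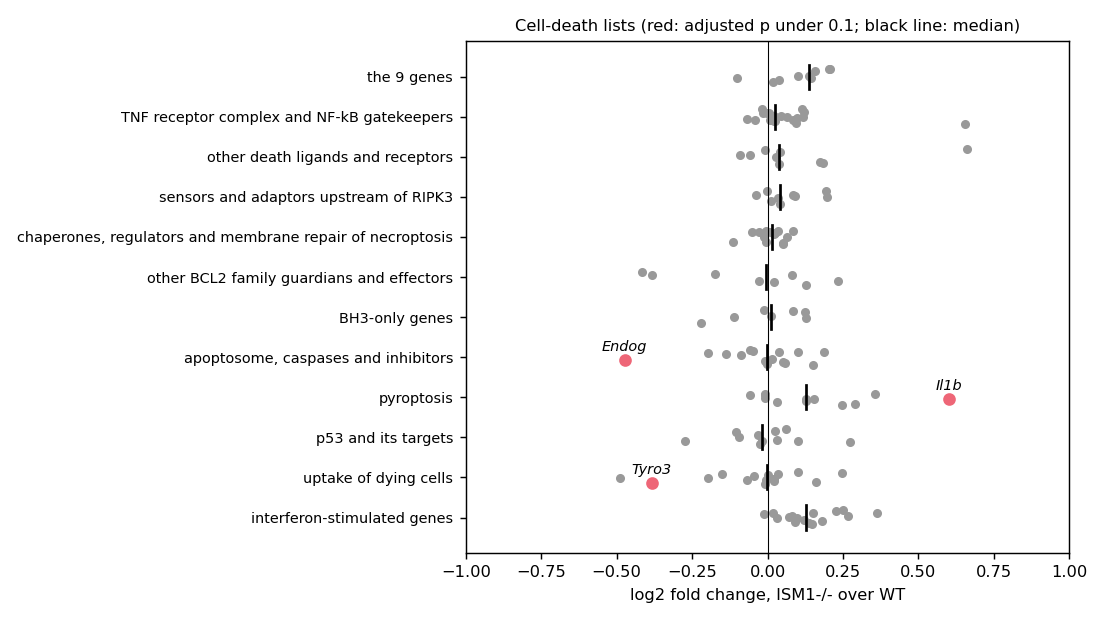
Log2 fold change, libraries labelled ISM1-/- over WT, of each tested gene in the 9 genes (top row) and the 11 connected lists, with the median of each list as a black line. Red points are the genes with an edgeR adjusted p under 0.1, *Endog*, *Tyro3* and *Il1b*, and the grey points, including all of the top row, did not pass.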

How the data were processed

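Lung RNA of 3 WT and 3 ISM1-KO libraries (written ISM1-/-) was compared, with groups and replicate numbers as the sample titles give them. The authors removed low-quality reads, aligned them with STAR (GRCm38), and deposited the read counts of each gene without normalization. The authors also deposited FPKM, counts scaled by library and gene length with 1 fixed length per gene. The counting program and its strand setting are not given in the sources used here.

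The 18689 genes that reached 0.5 CPM in 1 or more libraries were fitted in R 4.3.3 with edgeR 4.0.16 (TMM scaling, quasi-likelihood test), with p-values adjusted by Benjamini-Hochberg over all of them. An adjusted p under 0.1 counted as a call, with a 2-fold minimum as a stricter rule. Standard errors are the log2 fold change divided by the root of the F statistic. CPM is TMM-scaled, and coordinates are those of the deposited table. Promoter windows came from RefSeq.

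The members, the pathway and marker lists and the tests were chosen with earlier results of these data known. Named genes were the members, *Ism1*, pathway genes called, the gene of each list with the largest fold change among those that averaged 1 CPM or more, the 2 genes most like *Ripk3*, *Mlkl* and *Zbp1* by Pearson's r of log2(CPM + 0.5), genes that overlap a member, and markers. *Bcl2l10*, *Hrk* and *Adgrb1* were below the filter. Alternatives were DESeq2 1.42.0, limma 3.58.1 on log2(FPKM + 1) and log2(FPKM + 0.1), RLE factors, library totals, 3 other filters, stricter thresholds, the replicate number as a block, and each library left out. By chi-square, the counts of every pair of libraries differed by more than sampling noise. The fits were tested on simulated counts.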

Additional observations from a re-analysis of the deposited data

How the results depend on the processing

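The count of 0 members called was the same under 17 alternatives, the replicate block included, and the lowest adjusted p of a member was 0.148 (*Bcl2* in edgeR without WT 1). Among these alternatives, the stricter threshold and the 2-fold minimum were applied to the main fit. They could not add a call, for the members or for *Il1b* and *Bok*, and they repeat the fold changes of the main fit. Of the 153 fold changes of members under these alternatives, those repeats included, 148 kept their sign. The exceptions were *Mlkl* without WT 2 (−0.0095), without WT 3 (−0.0558) and without ISM1-/- 3 (−0.02), and *Zbp1* without WT 2 (−0.02) and without ISM1-/- 1 (−0.11), within ranges up to 0.13 for *Mlkl* and 0.73 for *Zbp1* when WT 1 was left out. The cause was not tested.

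The 882 calls over all genes became 1632 with no filter on low counts, 455 at an adjusted p under 0.05, 106 with the 2-fold minimum, and between 150 (without WT 2) and 1470 (without ISM1-/- 3) when a library was left out. The 3 calls in the pathway lists became 5 in DESeq2, 7 with no filter, 0 with the 2-fold minimum, and between 0 and 7 when a library was left out. With the gene length of the table in place of that behind the FPKM, an alternative chosen after seeing the data, the number of neighbouring pairs apart in level was 3 in place of 5.

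Over genes that averaged 1 CPM or more, libraries of the same replicate number did not deviate together (r = −0.0406, 0.0341 and 0.0294). The numbers were therefore not taken to pair them. Single genes could differ from this, as WT 1 and ISM1-/- 1 were alike for *Zbp1*. With the block, the unadjusted p of *Zbp1* in edgeR went from 0.545 to 0.0607 (log2 fold change 0.26, adjusted p = 0.324). That of *Mx1* went from 0.104 to 0.0224 (edgeR adjusted p = 0.198). With the replicate number as a block, 1105 genes in all, 3 pathway genes and 0 members were called. Those 3 pathway genes were all lower, since *Il1b* lost its call (edgeR adjusted p = 0.113) and *Bok* gained one (edgeR adjusted p = 0.0742).

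The lowest count of a member in a library was 274 (*Ripk3*, WT 1), and the shares of counting error and of differences between libraries in the spread were not tested. A p over the threshold does not show that a level was the same in both genotypes.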
